A study of Mus musculus with 16 samples.

Results

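The 9 genes of MHC class II antigen presentation described here were followed across all 6 groups of a mouse study of acute hepatitis treated with stem cells: Ciita, H2-Aa, H2-Ab1, H2-Eb1, Cd74, H2-DMa, H2-DMb1, H2-Oa and H2-Ob. They were taken by name from the spots of the arrays that are not controls, Ciita under its older name C2ta, and all 9 of 9 were present, on 15 probes, among 21176 genes named on the array. RNA of 16 samples was measured on Agilent arrays of 1 colour (Cy3). Every mouse was a female C57Bl/6 mouse given 300 µg of the T cell-activating lectin concanavalin A, which brings on hepatitis, and no mouse without the lectin was measured. Stem cells, grown in culture from the inguinal fat of C57Bl/6 mice, went into the tail vein at 100000 per mouse. The 4 liver groups held 3 mice each. They were livers 2 h after concanavalin A alone (mice 11, 12 and 13), 2 h after the lectin plus stem cells at once (mice 8, 9 and 10), 5 h after concanavalin A alone (mice 4, 5 and 6), and 5 h after the lectin with stem cells given at 3 h (mice 1, 2 and 3). The 2 groups of hepatic inflammatory cells held 2 samples each, all at 5 h, without stem cells (numbers 983 and 985) and with stem cells at 3 h (numbers 987 and 989). For 983 and 985 the source label also mentions stem cells, while the treatment and description labels do not, and they were used as untreated. Whether these 4 samples are from separate mice is not stated, so p-values there cover only their own spread.

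MHC class II molecules show peptides from engulfed protein to CD4 T cells. They are made mainly by B cells, dendritic cells and macrophages, and in other cells after exposure to interferon-gamma. An alpha and a beta chain assemble on the invariant chain Cd74 in the endoplasmic reticulum, proteases of the endosome trim Cd74 down to a fragment called CLIP, and H2-DM then exchanges CLIP for peptide, under the restraint of H2-DO. All of these genes share a promoter module, the X and Y boxes, bound by the RFX complex, CREB and NF-Y. Ciita does not bind DNA itself: it is the coactivator that this platform recruits, and interferon-gamma induces it through a pathway that includes Jak1, Jak2 and Irf1.

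The shared promoter module is shown here because it is the feature that joins the members other than Ciita. RefSeq promoter windows on GRCm38.p6 were at hand for 6 of the 9 genes, namely H2-Aa, H2-Eb1, H2-DMa, H2-DMb1, H2-Oa and H2-Ob, and for the neighbouring genes H2-Eb2 and H2-DMb2. The 250 bases before each start were searched on both strands for an X box core, AACNNATG, and a Y box core, GATTGG, which do not overlap each other. The X core was worded with these promoters in view. The Y core was present before a start of each of the 6 members, which had 7 windows, against 14.6% of all 32851 promoter windows. For H2-DMa a window held no Y core, and another held it far from the start, 199 bases before. An X core followed by a Y core on the same strand with 8 to 24 bases between them was present before H2-Eb1, H2-DMb1 and H2-Ob and before both neighbouring genes. It was present in 13 of all windows (0.0396%), and the X core alone in 7.71%. The windows below run 5′ to 3′ on the strand of the gene, with the X and Y cores in capitals.
H2-Eb1: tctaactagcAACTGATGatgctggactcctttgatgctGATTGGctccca
H2-Eb2: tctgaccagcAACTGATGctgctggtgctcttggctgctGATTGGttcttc
H2-DMb1: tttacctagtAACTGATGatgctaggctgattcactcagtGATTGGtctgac
H2-DMb2: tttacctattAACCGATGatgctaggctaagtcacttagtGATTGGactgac
H2-Ob: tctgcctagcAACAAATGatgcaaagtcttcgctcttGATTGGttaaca
H2-Aa: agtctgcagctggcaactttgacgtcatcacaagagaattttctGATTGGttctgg

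These windows lie on the plus strand at chr17:34305768-34305818 for H2-Eb1, chr17:34325535-34325585 for H2-Eb2, chr17:34153089-34153140 for H2-DMb1, chr17:34145118-34145169 for H2-DMb2 and chr17:34238810-34238858 for H2-Ob. The window of H2-Aa lies on the minus strand at chr17:34287861-34287916, and the letters of the X core searched are not in its 250 bases. Between the cores there were 21 bases before H2-Eb1 and H2-Eb2, 22 before H2-DMb1 and H2-DMb2, and 19 before H2-Ob. The Y core began 60 bases before the start of H2-Eb1, 62 before that of H2-DMb1, 58 before that of H2-Ob and 49 before that of H2-Aa. A match of letters is a description and does not show that a factor binds.

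Gene values are given as log2 signal over the 75th percentile of each array, and levels are compared between samples and never between probes. Each gene is given by its brightest probe over the arrays of a fit. Spots well above background ran from 52.1% to 62.5% of an array, and 0 spots were saturated. Of the 9 members, 8 passed the filter on dim probes in the livers and all 9 in the inflammatory cells. H2-Ob was not well above background on any of the 12 liver arrays. H2-Ea, the alpha chain partner of H2-Eb1, was not well above background on any of the 16 arrays, in a strain known to lack its transcript. A limit applies to 2 of the probes: that of H2-Eb1 is listed in the array design under a sequence described as an I-A beta mRNA, and 1 of the 2 probes of H2-DMb1, not the one used here, also lists H2-DMb2. The design places the H2-Eb1 probe at chr17:33922800-33923261 of mm8. The H2-Ab1 probes that it places lie between 33872973 and 33877368. What the H2-Eb1 probe binds was not tested. At 2 h, 2 livers stood apart from the other 4 in an interferon-induced gene: Irf1 was at 4.22 in mouse 10 and 3.41 in mouse 13, against 7.61 to 8.02 in the rest, so results at 2 h are also given without both.

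Ciita, the coactivator, was lower in the livers given stem cells than in their untreated counterparts at both times, and neither difference passed the threshold over all genes. At 2 h Ciita stood at -0.71, -0.77 and -0.95 in mice 11, 12 and 13 without stem cells and at -1.90, -1.85 and -2.36 in mice 8, 9 and 10 with them. Every treated liver lay below every untreated one, with a gap wider than the range within either group. The difference was -1.23 ± 0.19 (log2 change ± standard error of the fit, n = 3 and 3), a 2.35-fold lower signal, with a limma adjusted p of 0.0978. Without mouse 13 it was -1.30 with an adjusted p of 0.0144, and without mice 10 and 13 together -1.14 with an adjusted p of 0.0199. With another background correction, normexp, it was -0.37 (adjusted p = 0.450). At 5 h Ciita stood at 0.14, -0.36 and 0.02 in mice 4, 5 and 6 and at -0.93, -0.62 and -0.93 in mice 1, 2 and 3 given stem cells at 3 h. The groups again did not overlap, and the difference was -0.76 ± 0.19 (adjusted p = 0.210).

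The livers were hybridised on 3 slides, each with 1 liver of every group. Within slides, Ciita was lower with stem cells on 3 of 3 slides at 2 h, by -1.13, -1.66 and -0.90, and on 3 of 3 at 5 h, by -1.07, -0.56 and -0.64. With slide as a block the adjusted p was 0.167 at 2 h and 0.197 at 5 h. At 2 h the untreated livers had the same place on each slide and the treated livers another, so that place and treatment cannot be told apart.

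The class II chains and the invariant chain had lower means with stem cells at 2 h and higher means with them at 5 h, and none of these differences passed the threshold. H2-Ab1, the beta chain of I-A, was at 4.13, 3.73 and 4.27 in the untreated livers at 2 h and at 3.62, 3.43 and 3.40 in those given stem cells. All 3 treated values lay below the 3 untreated ones, with a difference of -0.56 ± 0.15 (adjusted p = 0.668). At 5 h H2-Ab1 was at 3.37, 3.37 and 3.24 without stem cells and 3.55, 3.74 and 3.53 with them, so the treated livers were the higher ones, by 0.28 ± 0.15 (adjusted p = 0.477). All 4 probes of H2-Ab1 gave these signs, with differences from -0.56 to -0.54 at 2 h and from 0.21 to 0.28 at 5 h.

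H2-Eb1, the beta chain of I-E, was at 2.28, 1.75 and 2.40 in the untreated livers at 2 h and at 1.61, 1.60 and 1.73 in the treated ones. The groups were separated only narrowly, by mouse 12 against mouse 10, and the difference was -0.50 ± 0.18 (adjusted p = 0.830). At 5 h it was at 1.35, 1.43 and 1.38 without and 1.45, 1.88 and 1.76 with stem cells, again without overlap, by 0.31 ± 0.18 (adjusted p = 0.495). H2-Aa, the alpha chain of I-A, was at 2.25, 1.45 and 2.40 against 1.39, 1.60 and 1.66 at 2 h, and mouse 12 lay among the treated livers. Its differences were -0.48 ± 0.27 at 2 h (adjusted p = 0.865) and 0.31 ± 0.27 at 5 h (adjusted p = 0.661), where 1.03, 1.52 and 1.63 without stem cells overlapped 1.39, 2.02 and 1.69 with them.

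Cd74, which holds the chains until they reach the endosome, was at 4.27, 4.16 and 4.28 in the untreated livers at 2 h. In the livers given stem cells at once it was at 4.10, 3.56 and 3.67, below all untreated values but with mouse 8 close to them, and the difference was -0.46 ± 0.17 (adjusted p = 0.819). At 5 h Cd74 was at 4.04, 3.80 and 3.64 without and 4.13, 3.96 and 3.97 with stem cells. These overlapped, with a difference of 0.19 ± 0.17 (adjusted p = 0.652).

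The peptide exchange factor H2-DM has an alpha chain, H2-DMa, and a beta chain, H2-DMb1. H2-DMa was at -0.25, -0.44 and 0.38 in the untreated livers at 2 h and at -0.67, -0.64 and -0.31 in the treated ones, with mouse 12 inside the treated range. At 5 h its groups were nearly level, at -0.63, -0.27 and -0.57 without and -0.52, -0.39 and -0.61 with stem cells, a difference of -0.01 ± 0.21 (adjusted p = 0.985). H2-DMb1 was at 1.69, 1.25 and 2.16 without and 1.36, 1.33 and 1.48 with stem cells at 2 h, overlapping, and at 0.92, 1.25 and 0.90 without and 1.33, 1.50 and 1.44 with them at 5 h. The 5 h livers of H2-DMb1 did not overlap, and the treated ones were higher by 0.40 ± 0.21 (adjusted p = 0.452).

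H2-DO, which restrains H2-DM and is best known from B cells, was represented in liver by its alpha chain H2-Oa alone. H2-Oa was at -2.75, -2.70 and -1.23 in the untreated livers at 2 h and at -2.47, -2.28 and -1.86 in the treated ones. Mouse 13 was the highest of these 6 and set the mean of its group, and the difference of 0.02 ± 0.37 became 0.35 without mice 10 and 13. At 5 h H2-Oa was at -3.68, -3.13 and -3.14 without and -2.77, -2.65 and -2.95 with stem cells, which did not overlap, with a difference of 0.53 ± 0.37 (adjusted p = 0.568).

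**Figure D1:**
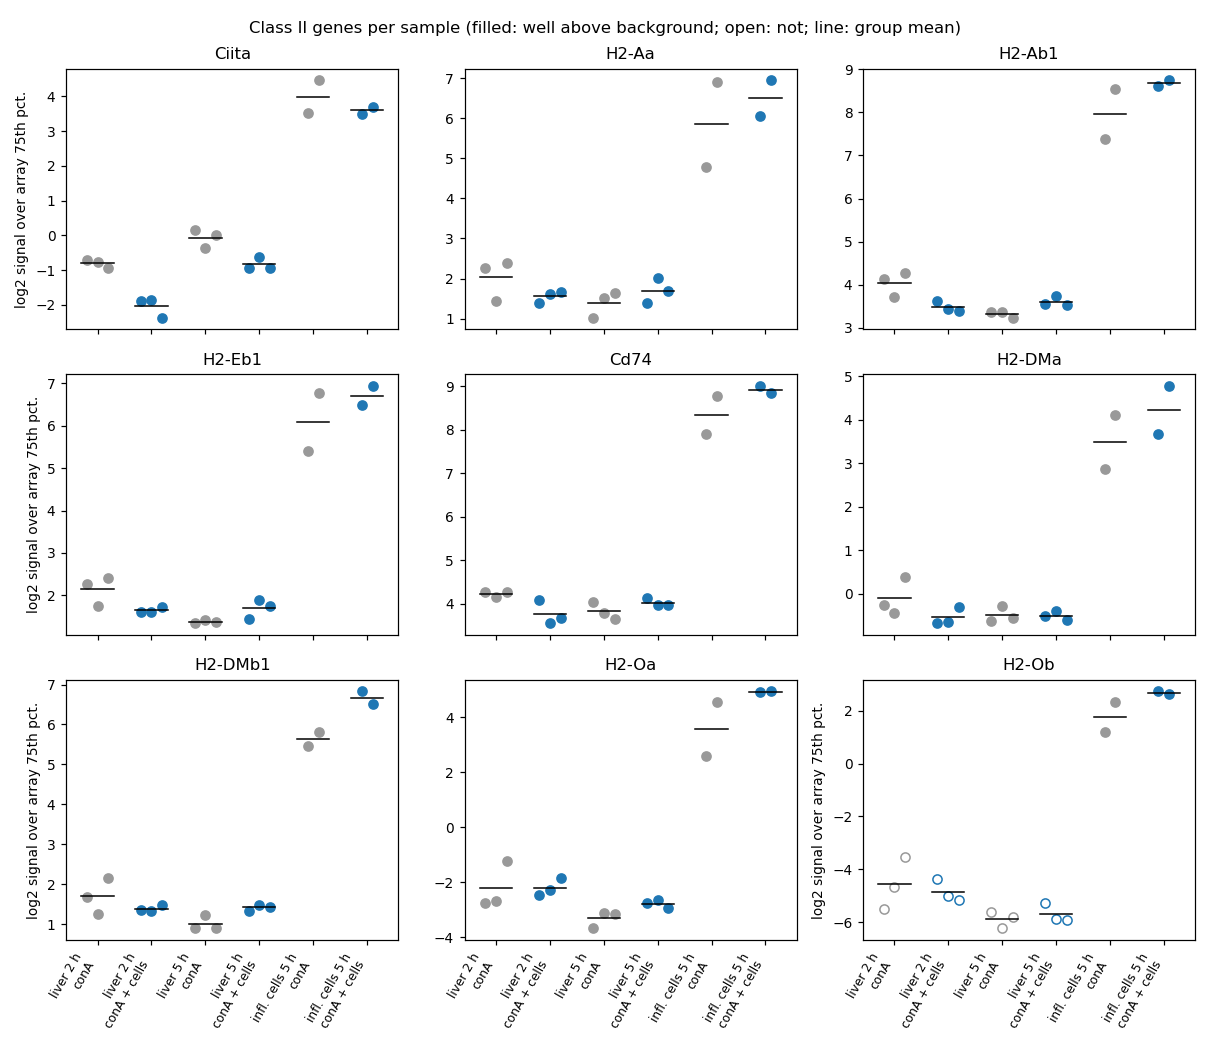
Log2 signal over the 75th percentile of the array (y axis) of each class II gene in the 6 groups (x axis), 1 point per sample, grey without and blue with stem cells. Lines are group means, and open points were not well above background. Ciita is lower in the blue liver groups at both times, H2-Ab1 is lower at 2 h and higher at 5 h, and all 9 genes stand far higher in inflammatory cells.

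Counted over the members, 0 of 8 passed the threshold for immediate stem cells at 2 h, where 0.0275% of 14559 genes did. With 7 of 8 below 0 their median change was -0.47, against 0.08 over all genes tested, and 4 of 8 (Ciita, H2-Ab1, H2-Eb1 and Cd74) did not overlap, against 8.19% of all genes. For stem cells at 3 h, 0 of 8 passed, where 0.0343% of all genes did. Their median was 0.29, against 0.08 over all genes, and 5 of 8 did not overlap, against 22.2% of all genes: Ciita lower, H2-Ab1, H2-Eb1, H2-DMb1 and H2-Oa higher. At an unadjusted p under 0.05 there were 815 genes at 2 h and 1806 at 5 h. Without mice 10 and 13 the differences at 2 h were -0.40 for H2-Ab1, -0.41 for H2-Eb1, -0.35 for H2-Aa, -0.39 for Cd74, -0.31 for H2-DMa and -0.13 for H2-DMb1, with adjusted p from 0.271 to 0.793. Within slides, H2-Aa, H2-Ab1, H2-Eb1 and Cd74 were lower with stem cells on 3 of 3 slides at 2 h and higher on 3 of 3 at 5 h. At 2 h their differences on slide 1 were small, from -0.14 (H2-Eb1) to -0.06 (H2-Aa and Cd74). On slides 2 and 3, which held mice 10 and 13, they ran from -0.83 (H2-Ab1) to -0.55 (H2-Eb1). The difference between the 2 stem cell effects was above 0 for 8 of 8 members, from 0.42 for H2-DMa to 0.84 ± 0.22 for H2-Ab1, and passed the threshold for 0 of 8 (adjusted p = 0.756 for H2-Ab1, 0.0137% of all genes called).

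Between 2 h and 5 h after concanavalin A alone, Ciita rose while 2 of the genes it serves fell. Ciita went from the untreated 2 h values given above to those at 5 h by 0.74 ± 0.19 (1.67-fold, adjusted p = 0.0270). H2-Ab1 fell by 0.71 ± 0.15 on the log2 scale (adjusted p = 0.0153), and H2-Eb1 by 0.76 ± 0.18 (adjusted p = 0.0221). Of the 8 members 6 did not overlap between the times, these 3 and H2-DMb1, H2-Oa and Cd74, against 35.9% of all genes. The remaining 5 members had values below 0: H2-Oa -1.09 ± 0.37 (adjusted p = 0.0692), H2-DMb1 -0.68 ± 0.21 (adjusted p = 0.0501), H2-Aa -0.64 ± 0.27 (adjusted p = 0.130), Cd74 -0.41 ± 0.17 (adjusted p = 0.118) and H2-DMa -0.38 ± 0.21 (adjusted p = 0.242). Of all genes 6.44% rose and 9.24% fell, against 1 and 2 of the 8 members, and the median change of the members was -0.66 against -0.08 over all genes.

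These calls were close to the threshold. That of Ciita was lost without mouse 12, 13, 4 or 6 (adjusted p from 0.0551 to 0.0939), that of H2-Eb1 without mouse 11, 13, 4 or 6 (0.0504 to 0.0704), and that of H2-Ab1 without mouse 6 (0.0593). Without mice 10 and 13 together, Ciita rose by 0.67 (adjusted p = 0.0409) and H2-Ab1 fell by 0.60 on the log2 scale (adjusted p = 0.0396), while H2-Eb1 was at -0.63 (adjusted p = 0.0611). All 8 members kept the sign of their change on 3 of 3 slides, and with slide as a block H2-Aa also fell, by 0.64 on the log2 scale (adjusted p = 0.0310). With normexp none of the 3 calls was kept (adjusted p = 0.373, 0.212 and 0.180 for Ciita, H2-Ab1 and H2-Eb1), nor with only the arrays of the 2 groups (0.0855, 0.0914 and 0.0979), and with no filter that of Ciita was lost (0.0540). Calls were gained without mouse 12 by H2-DMb1 (-0.91, adjusted p = 0.0191) and H2-Aa (-0.93, adjusted p = 0.0371), and without mouse 11 by H2-Oa (-1.35, adjusted p = 0.0432). On every slide the 2 h livers held one pair of places and the 5 h livers the other, so place and time cannot be told apart.

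In the stem cell groups, where both the time and the schedule of the cells differ, Ciita was the member that changed. It rose by 1.21 ± 0.19 (2.32-fold, adjusted p = 0.00313), on 3 of 3 slides by 0.97, 1.44 and 1.23, and the call was kept without any 1 liver. With normexp it was 0.41 (adjusted p = 0.429). Of all genes 8.81% rose in this comparison. The other 7 members had values from -0.58 ± 0.37 (H2-Oa) to 0.25 ± 0.17 (Cd74), and 1 of them, H2-Oa, did not overlap between the times. With Ciita that makes 2 of 8, against 42.8% of all genes. The comparisons at 2 h, at 5 h and over time share livers: the untreated 2 h livers enter both the stem cell difference at 2 h and the time course of concanavalin A alone, so their values are set side by side and not read as separate evidence.

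**Figure D2:**
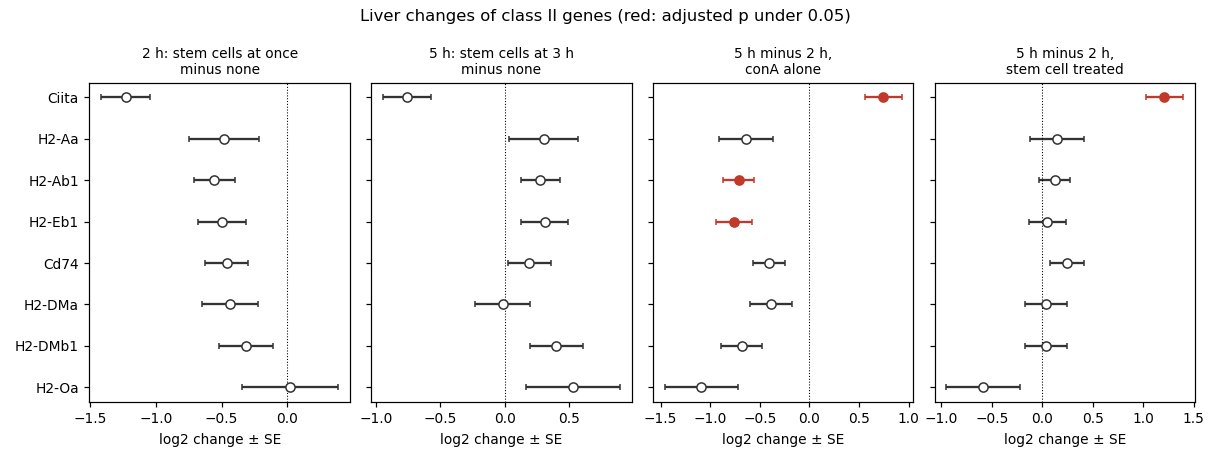
Log2 change with its standard error (x axis) of the 8 class II genes measured in liver (y axis) for the 4 liver comparisons, with calls past an adjusted p of 0.05 in red. Ciita is at -1.23 and -0.76 in the stem cell comparisons and at 0.74 and 1.21 over time, and H2-Ab1 and H2-Eb1 are the other red points, at -0.71 and -0.76.

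Over the 12 livers Ciita and the presentation genes thus took different orders. The mean log2 value of H2-Aa, H2-Ab1, H2-Eb1 and Cd74 was highest in mice 13 (3.34) and 11 (3.23) and lowest in mice 4 (2.45), 6 (2.47) and 5 (2.53), the livers in which Ciita was highest. Pearson's r between Ciita and this mean was -0.05 over the 12 livers, as a description with no test, since livers of a group share their condition. By group means Ciita ran from -2.04 ± 0.28 (SD, n = 3) with stem cells at 2 h, through -0.83 ± 0.18 with stem cells at 5 h and -0.81 ± 0.13 without at 2 h, to -0.07 ± 0.26 without at 5 h, and the middle pair did not differ beyond their spread. H2-Ab1 ran from 3.33 ± 0.08 without stem cells at 5 h, through 3.48 ± 0.12 with them at 2 h and 3.61 ± 0.11 with them at 5 h, to 4.04 ± 0.28 without at 2 h. Neighbours among its lower 3 groups lay about as far apart as the livers within them.

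**Figure D3:**
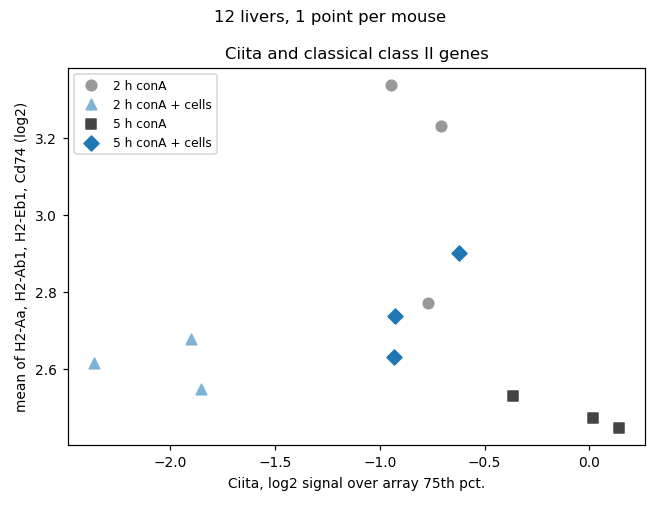
Log2 value of Ciita (x axis) against the mean log2 value of H2-Aa, H2-Ab1, H2-Eb1 and Cd74 (y axis) in the 12 livers, 1 point per mouse and a marker per group. The 5 h livers without stem cells have the highest Ciita, from -0.36 to 0.14, and the lowest class II mean, from 2.45 to 2.53.

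The genes whose pattern over the 12 livers was most like that mean, by Pearson's r among 14545 genes with complete values, and with the members set aside, were Sephs1 (0.89), Igfbp2 (0.86), Matn2 (0.84), Slc28a2 (0.83) and Lmbrd1 (0.81). Among the members that do not enter the mean, H2-DMb1 had an r of 0.89 with it, as high as Sephs1, H2-DMa 0.76, H2-Oa 0.58 and Ciita -0.05. Those that enter it followed it unequally, at 0.98 for H2-Ab1, 0.97 for H2-Eb1, 0.88 for H2-Aa and 0.685 for Cd74. Between Cd74 and H2-Aa r was 0.28. Likewise the genes most like Ciita were Nup62 (0.96), Smtnl2 (0.94), Aldh1a3 (0.94), Zbp1 (0.94) and Slc1a5 (0.94). The correlations are over livers that share 4 conditions.

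On the route from interferon-gamma to Ciita, genes passed the threshold in liver over time in the stem cell groups. Of the 9 genes described (Ifng, Ifngr1, Ifngr2, Jak1, Jak2, Irf1, Irf2, Socs1 and Usf1) 0 passed for stem cells at 2 h or at 5 h, and 0 between 2 h and 5 h after concanavalin A alone. In the stem cell groups 2 of 9 rose with time: the receptor kinase Jak2 by 1.87 ± 0.37 (adjusted p = 0.00880) and the kinase Jak1 by 0.65 ± 0.17 (adjusted p = 0.0277). Ifng, the cytokine itself, was spread widely at 2 h, from -0.50 in mouse 13 to 3.34 in mouse 11, and did not pass in any liver comparison, at 0.35 ± 0.81 and 1.06 ± 0.81 over time.

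Class I presentation is also induced by interferon-gamma and is carried out by nearly all cells. Of the 10 genes of that list measured, 5 rose and 0 fell between 2 h and 5 h after concanavalin A alone, with a median of 0.68. They were led by the immunoproteasome subunits Psmb9 (1.36 ± 0.36), Psmb8 (1.08 ± 0.17) and Psmb10 (0.99 ± 0.19) and the peptide transporter subunit Tap2 (0.69 ± 0.18). In the stem cell groups 6 of 10 rose and 0 fell. Of the 12 class II antigen processing genes, 0 rose and 2 fell after concanavalin A alone. The ubiquitin ligase Marchf8, which turns over surface class II, fell by 0.54 ± 0.15 on the log2 scale, and Ap1s2, an adaptor subunit of vesicle traffic, by 0.89 ± 0.23. In the stem cell groups Marchf1, the ligase that does this in dendritic and B cells, rose by 1.27 ± 0.27 and the endosomal protease Ctsl by 0.55 ± 0.15, while Marchf8 fell by 0.53 ± 0.15. Of the 7 factors of the X and Y boxes, 0 passed after concanavalin A alone. In the stem cell groups 1 rose, Rfx5, a subunit of the RFX complex, by 1.19 ± 0.37 (adjusted p = 0.0472). For stem cells at 2 h and at 5 h, 0 genes of these 3 lists passed.

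Bulk liver cannot separate fewer cells of a type from less RNA per cell, so markers of cells that can carry class II are given beside these values. The summed signal of 12 B cell markers, relative to the 75th percentile, was 4.12 to 7.61 in the untreated livers at 2 h and 2.39 to 2.68 at 5 h, and 5.29 to 7.03 and 3.07 to 3.50 in the stem cell groups. Of the 10 measured in the liver fit, 0 rose and 2 fell over time after concanavalin A alone, the Fc receptor for IgM, Fcmr, by 2.21 ± 0.30 on the log2 scale and the adaptor Blnk by 1.13 ± 0.23. The B cell transcription factor Pax5 and the kinase Blk were not well above background on any liver array. The B cell list was at its highest in mouse 13, the liver with the highest class II mean. The summed level of 11 Kupffer cell and macrophage markers was 99.0 to 156 and 76.2 to 115 in the untreated livers at 2 h and 5 h, with 0 of 11 past the threshold over time, and that of 11 dendritic cell markers was 4.78 to 13.6 and 10.9 to 11.7, with 0 of 8 past it. For sinusoidal endothelium, which can carry class II, 4 of 10 markers fell and 0 rose over the same time, led by Gpr182 and Kdr. With stem cells at 2 h, where the class II chains had lower means, no marker of these lists passed. Most B cell markers were above 0, from -0.62 (Fcer2a) to 0.54 (Cd79a). Most Kupffer cell and macrophage markers were below 0, from -0.72 (Marco) to 0.15 (Vsig4). Endothelial and dendritic cell markers went both ways, from -0.48 (Lyve1) to 0.33 (Kdr) and from -1.32 (Batf3) to 0.53 (Cd83). With stem cells at 5 h, where the class II chains had higher means, 10 of 11 Kupffer cell and macrophage markers, 9 of 10 endothelial and 8 of 10 B cell markers had values above 0, and 0 of these passed. The summed levels with stem cells against none were then 112 to 139 against 76.2 to 115 for the Kupffer cell list, and 41.8 to 55.3 against 29.0 to 37.5, without overlap, for the endothelial list. Higher values were not particular to these cells. The hepatocyte list summed to 3704 to 5033 against 3451 to 4222. Mesenchymal cell markers summed to 86.6 to 115 against 73.2 to 91.2, overlapping. Their mean log2 value, another measure, was -0.03 to 0.38 against -0.19 to -0.10, without overlap. Dendritic cell markers went both ways, from -0.35 (Itgax) to 0.61 (Xcr1), and summed to 9.43 to 12.6 against 10.9 to 11.7. The median change over all genes was 0.08. The part of cell makeup in the class II values was not tested.

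In hepatic inflammatory cells all 9 members stood far above liver. After concanavalin A alone Ciita was at 3.51 and 4.46 in samples 983 and 985, against -0.36 to 0.14 in the 5 h livers, a difference of 4.05 ± 0.27 (16.6-fold, adjusted p = 3.89e-08). H2-Ab1 was at 7.39 and 8.53 against 3.24 to 3.37, a difference of 4.63 ± 0.28 (24.8-fold, adjusted p = 1.17e-08), and Cd74 at 7.90 and 8.78 against 3.64 to 4.04, a difference of 4.51 ± 0.25 (22.9-fold, adjusted p = 5.80e-09). Both samples of cells lay above every liver for each of the 9 genes, where 73.8% of all genes did not overlap in either direction. The differences of H2-Aa, H2-Eb1, H2-DMa and H2-DMb1 ran from 3.98 ± 0.38 (H2-DMa) to 4.70 ± 0.33 (H2-Eb1).

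H2-DO had the widest gaps. H2-Oa was at 2.60 and 4.55 in the cells against -3.68 to -3.13 in liver, a difference of 6.89 ± 0.52 (119-fold, adjusted p = 1.12e-07). H2-Ob, the beta chain of H2-DO, was at 1.20 and 2.32 in the cells and not well above background in liver, so its signal was at least 67.2-fold higher. Such a bound sets the mean of the brighter group against, on each dim array, either the signal of the gene or the lowest one well above background, whichever is higher. The same held for 2 neighbours of the members: H2-DMb2, a second beta chain gene of H2-DM, was at least 58.8-fold higher and H2-Eb2 at least 9.49-fold. H2-Ob and H2-Eb2 were kept in the fit of all 16 samples through the cell arrays alone. The part of H2-Ob in the counts of all 9 members between tissues thus adds no support.

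In the stem cell groups the gaps were of the same order. Ciita was at 3.50 and 3.70 in the cells against -0.93 to -0.62 in liver, a difference of 4.43 ± 0.27 (21.5-fold, adjusted p = 1.83e-08). H2-Ab1 was higher by 5.07 ± 0.28 (33.6-fold), Cd74 by 4.90 ± 0.25 (29.9-fold), H2-Oa by 7.72 ± 0.52 (210-fold), and H2-Ob by at least 104-fold. All 9 members were higher in the cells with and without stem cells, where 28.3% and 29.3% of 16208 genes were, and their median differences were 5.01 and 4.62, against -0.23 and -0.04 over all genes. With stem cells, too, 9 of 9 did not overlap, against 77.9% of all genes. All cell samples were on a slide of their own, so slide and tissue cannot be told apart.

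Markers of B cells moved with the members between the tissues, 12 of 12 higher without stem cells and 12 of 12 with them. The B cell list summed to 176 to 369 in untreated cells and 2.39 to 2.68 in untreated livers. Dendritic cell markers were higher for 8 of 11, led by the plasmacytoid marker Siglech and the chemokine receptor Ccr7, and 0 were lower at the threshold. Pax5, Blk, Siglech, Clec9a and Cd209a, like H2-Ob, were kept in this fit through the cell arrays alone. Of the 11 Kupffer cell and macrophage markers 1 was higher, Cd68 (0.94 ± 0.25), and 2 were lower, the scavenger receptor Marco and the Kupffer cell lectin Clec4f. Hepatocyte markers fell for 10 of 10, to summed levels of 80.5 to 185 from 3451 to 4222. Among the 12 processing genes 6 were higher and 5 lower. The higher ones were led by Ap1s2 (3.25 ± 0.31) and Marchf1 (2.63 ± 0.34). The lower ones were led by Ctsl (-4.00 ± 0.20) and Marchf8 (-3.33 ± 0.19).

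**Figure D4:**
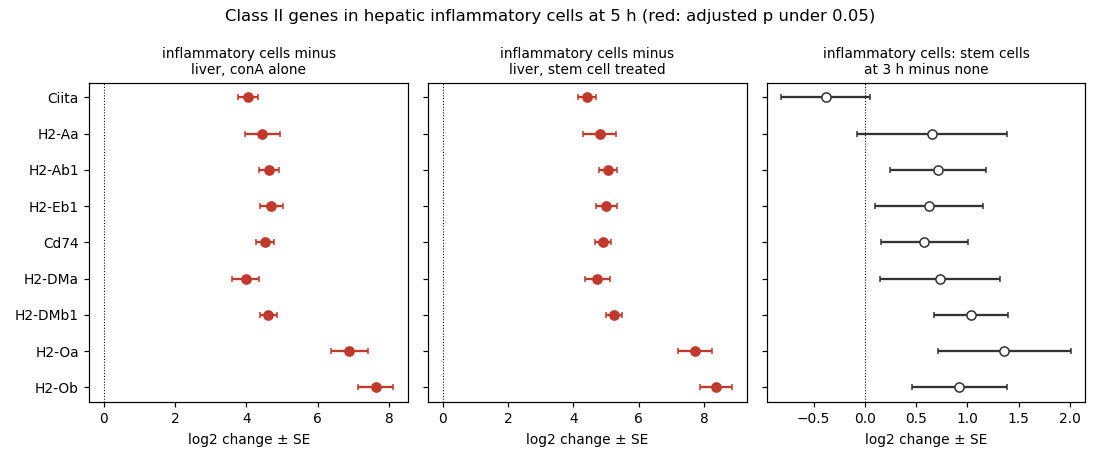
Log2 change with its standard error (x axis) of the 9 class II genes (y axis) for inflammatory cells minus liver at 5 h without and with stem cells, and for stem cells minus none within inflammatory cells, with calls past an adjusted p of 0.05 in red. The fitted value of H2-Ob against liver rests on signals below background. The gaps to liver run from 3.98 to 7.64 without and from 4.43 to 8.37 with stem cells, and no point of the right panel is red.

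Within the inflammatory cells 0 of 9 members passed the threshold between samples with and without stem cells, where 0.0141% of 14166 genes did (2544 genes at an unadjusted p under 0.05). Of the 9, 8 had values above 0, with a median of 0.72 against 0.09 over all genes, and 5 did not overlap, against 52.5% of all genes. The largest differences were those of H2-Oa, at 4.92 and 4.94 with stem cells against 2.60 and 4.55 without (1.36 ± 0.65, adjusted p = 0.329), and of H2-DMb1, at 6.83 and 6.52 against 5.46 and 5.82 (1.03 ± 0.36, adjusted p = 0.233). H2-Ab1 was at 8.61 and 8.74 with stem cells against 7.39 and 8.53 without, by 0.72 ± 0.47 (adjusted p = 0.449). For these genes sample 983 was the low one, while 985 lay close to the treated pair except in H2-DMb1.

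Sample 983 also set the sign for part of the list. H2-Aa was at 4.79 in 983 and 6.90 in 985, against 6.06 and 6.95 with stem cells, and H2-Eb1 at 5.41 and 6.76 against 6.48 and 6.94. Without 983 the difference of H2-Aa went from 0.66 to -0.40 and that of H2-Eb1 from 0.62 to -0.05. H2-DMa was at 2.86 and 4.12 without and 3.67 and 4.78 with stem cells, overlapping, by 0.73 ± 0.58. Cd74 was at 9.01 and 8.83 with stem cells, above both untreated samples, by 0.58 ± 0.42, and H2-Ob at 2.74 and 2.63, by 0.92 ± 0.46. Ciita was the member with a value below 0, at 3.50 and 3.70 with stem cells against 3.51 and 4.46 without, by -0.38 ± 0.43 (adjusted p = 0.664), and without 985 this was 0.09. Without 985, which leaves 983 as the lone untreated sample under the spread of the other pair, H2-Oa rose by 2.33 (adjusted p = 0.0184) and H2-Ob by 1.48 (adjusted p = 0.0493).

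Sample 983 was low in B cell and macrophage markers too. The B cell list summed to 176 in 983 and 369 in 985, against 336 and 350 with stem cells, and the Kupffer cell and macrophage list to 46.3 and 89.8 against 195 and 152, with Clec4f at 2.04 and 3.53 against 4.55 and 4.06. The 9 class II members summed to 549 in 983, 1161 in 985, and 1237 and 1299 with stem cells. Of the 11 dendritic cell markers 9 had values above 0 with stem cells and 0 passed the threshold, with a median of 0.59. Their summed level was lower, 119 to 124 against 148 to 214, and their mean log2 value higher, 0.81 to 1.03 against 0.20 to 0.49. Differences were not particular to these cells. Neutrophil markers summed to 621.7 to 675.2 with stem cells against 158.9 to 265.5 without, with no overlap. Hepatocyte markers (137.9 to 324.5 against 80.5 to 185) and T cell markers (52.77 to 90.26 against 76.92 to 88.95) overlapped. The part of cell makeup in the class II values was not tested.

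**Figure D5:**
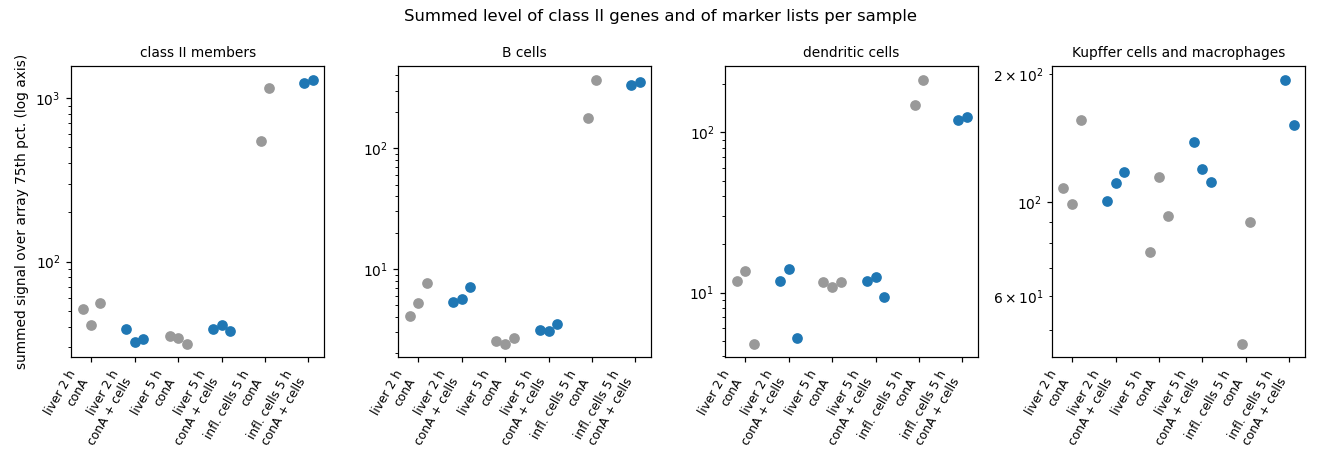
Summed signal over the 75th percentile of the array (y axes, log scale) of the 9 class II genes and of the B cell, dendritic cell and macrophage marker lists in the 6 groups (x axis), 1 point per sample, grey without and blue with stem cells. Sample 983, the lower grey point of the untreated inflammatory cells, is at 549 for class II, 176 for B cells and 46.3 for macrophages.

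Upstream of Ciita, the transcript of interferon-gamma itself had a lower mean with stem cells in these cells without passing the threshold. Ifng was at 6.96 and 7.37 without and 4.05 and 4.37 with stem cells, apart by -2.95 ± 0.37 (adjusted p = 0.0908). Of the 9 genes of the route 0 passed and 5 had values below 0. The stem cell effect in inflammatory cells minus that in liver at 5 h was above 0 for 9 of 9 members. H2-Ob adds no support to this count, since its effect in liver rests on signals below background. The difference of effects ran from 0.31 ± 0.47 (H2-Eb1) to 0.83 ± 0.74 (H2-Oa), and passed for 0 of 9, where 2.26% of all genes did. Without 983 it was -0.70 for H2-Aa, -0.37 for H2-Eb1, -0.15 for H2-Oa, -0.13 for H2-Ab1, -0.10 for Ciita and -0.05 for Cd74, and without 985 it passed for H2-Ab1 (1.01, adjusted p = 0.0357).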

How the data were processed

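Per the file headers, the deposited scanner files hold intensity values on a linear scale. The submitters' processing notes name Agilent Feature Extraction 10.5.1.1. The deposited series table held the same intensity values. From these, processed signals were put on a log2 scale and set against the 75th percentile of their array, outlier-flagged spots were set to missing (55 to 100 an array), spots of 1 probe were averaged, and probes well above background on at least 3 liver arrays, or 2 arrays in the other fits, were kept. Names came from the design's accessions and symbols through the RefSeq table. Groups were compared with limma 3.58.1 in R 4.3.3 (2-sided, Benjamini-Hochberg over all genes of a fit, threshold 0.05): 12 livers in 1 fit, 4 inflammatory cell samples in another, all 16 for tissue differences. The fits were tested on simulated data. Alternatives were normexp (offset 50), quantile normalization, no filter, the mean of probes, slide as a block, the 2 groups alone, and samples left out. Members, lists and motifs were chosen with earlier results of these data known. All 9 members were named in each comparison. Of the other lists up to 4 genes past the threshold were named by size, and the interferon-gamma route and H2-Ea by name. One gene of that route is not reported here.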

Additional observations from a re-analysis of the deposited data

How the results depend on the processing

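Most values kept their direction and call. Of 1458 changes of members under other settings, 1404 kept both, 18 lost a call, 9 gained one and 27 changed sign. This tally includes the series value table, which holds the same signals and could change nothing. It also includes samples left out of groups that a comparison does not use, which cannot change a sign there. No changed sign was of a value past the threshold, and the calls lost or gained stand with their results above. The series value table gave the same values throughout. The groups share no mouse number, and the pairing tried was that of livers on 1 slide, as a block.

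With normexp, members called fell to 0 in both time comparisons, and genes called were 0 and 1 for stem cells at 2 h and 5 h, 291 and 805 over time (concanavalin A alone, stem cell treated), 0 for the difference of liver effects, 984 in inflammatory cells, 6689 between tissues with stem cells and 3 for the difference of effects between tissues. Signs turned with normexp for the difference of liver effects of Ciita (-0.17) and H2-Oa (-0.11), for the difference of effects between tissues of Ciita (-0.09), and for H2-DMa over time with stem cells (-0.05). With only the arrays of the 2 groups, genes called were 0 at 2 h, 9 at 5 h and 353 over time without stem cells, where 0 members passed. Without mice 10 and 13 together 1 member and 454 genes passed at 2 h, 47 genes at 5 h and 73 for the difference of liver effects. With no filter 1327 genes passed over time without stem cells, 0 for the difference of liver effects, 24 in inflammatory cells and 215 for the difference between tissues. The mean of probes gave 1 gene for the difference of liver effects and 241 for that between tissues, quantile normalization 1 in inflammatory cells and 572 for the latter, and slide as a block 0 for the difference of liver effects. With quantile normalization H2-Oa at 2 h became -0.08 and H2-DMb1 over time with stem cells 0.00 to 2 decimals, below 0.

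Leaving out 1 sample at a time, members called ran from 0 to 1 at 2 h, 0 to 4 over time without stem cells, 0 to 2 in inflammatory cells and 0 to 1 for the difference between tissues. Genes called ran from 2 to 480 at 2 h, the most without mouse 13, from 1 to 27 at 5 h, from 881 to 2374 and from 1301 to 3776 over time, from 0 to 22 for the difference of liver effects, from 0 to 2080 in inflammatory cells and from 83 to 2380 for the difference between tissues, the last pair at its most without 985. Differences of single genes that changed sign ran, at 2 h, from -0.24 (without mouse 11) to 0.52 (without 13) for H2-Oa, and at 5 h from -0.09 (without mouse 4) to 0.09 (without mouse 5) for H2-DMa. Over time with stem cells they ran from -0.01 to 0.30 for H2-Aa, -0.04 to 0.18 for H2-Eb1, -0.03 to 0.15 for H2-DMa and from just below 0, 0.00 to 2 decimals, to 0.08 for H2-DMb1, lowest without mouse 2 or, for H2-DMa, mouse 8. In inflammatory cells they ran, from without 983 to without 985, from -0.40 to 1.71 for H2-Aa, -0.05 to 1.30 for H2-Eb1 and -0.86 to 0.09 for Ciita. For the difference between tissues they ran in the same way from -0.70 to 1.41 for H2-Aa, -0.37 to 0.99 for H2-Eb1, -0.15 to 1.80 for H2-Oa, -0.13 to 1.01 for H2-Ab1, -0.10 to 0.85 for Ciita and -0.05 to 0.82 for Cd74. The cause of these shifts was not tested. With 2 or 3 samples a group, the number of arrays limits the precision, and signals below background leave H2-Ob without a level in liver.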
